A study of Mus musculus with 10 samples.

Results

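Keratins are the intermediate filament proteins of epithelial cells, and those of the ocular surface separate the cornea from the conjunctiva and from the skin of the lid. The members described here are the 51 genes, of 24736 in the deposited mRNA table, whose symbol is Krt followed by digits alone. They were measured in eyeballs of female Kunming (KM) mice, an outbred stock whose labelled age is 4 weeks, and the labels name no genetic change. Control mice had natural light (2 libraries, control A and B) and experimental mice a blue Philips PL-L lamp of 18 W inside a dark enclosure (3 libraries, blue A, B and C), and the titles carry day 14. The labels do not say whether the libraries of a group come from separate animals, or whether animals were pooled, so a p-value sets a difference against the spread of these libraries alone, and that spread may be technical.

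A keratin filament is built from pairs of 1 acidic (type I) and 1 basic (type II) chain, and each epithelium makes its own pairs. Krt12 is the chain that marks differentiated corneal epithelium, and mutations in its human counterpart cause Meesmann corneal dystrophy. Krt5 and Krt14 form the pair of basal cells in stratified epithelia, and Krt15 marks basal cells that include the corneal limbus. Krt4, Krt13 and Krt19 are typical of conjunctiva and other moist linings, Krt7, Krt8 and Krt18 of simple epithelia, and Krt1, Krt2 and Krt10 of the upper layers of skin. The genes stand in clusters: 24 of the 25 type I members lay on chromosome 11 and 24 of the 25 type II members on chromosome 15 of GRCm38 (mm10). Krt18, a type I gene, lay beside its partner Krt8 on chromosome 15, Krt222 on chromosome 11 was left out of both types, and Krt85 had no position in the RefSeq gene table.

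Promoters of the highest member of 4 classes (corneal, basal, conjunctival and simple) are shown first, because these genes lead their classes in reads. Each runs from 250 bases before to 50 bases after a transcript start annotated by RefSeq (GRCm38.p6), 5′ to 3′ on the gene's strand. Capitals mark matches on either strand to TATAAA (the TATA box core), CACCC (a core that KLF factors can bind, GGGTG on the other strand) and TGANTCA (the AP-1 core). The windows are chr11:99422210-99422509 for Krt12, chr15:101712856-101713155 for Krt5 and chr11:100121517-100121816 for Krt13, all on the minus strand, and chr15:102027966-102028265 on the plus strand for Krt18. The Krt12 start in this table lies inside the gene's annotated span.
Krt12: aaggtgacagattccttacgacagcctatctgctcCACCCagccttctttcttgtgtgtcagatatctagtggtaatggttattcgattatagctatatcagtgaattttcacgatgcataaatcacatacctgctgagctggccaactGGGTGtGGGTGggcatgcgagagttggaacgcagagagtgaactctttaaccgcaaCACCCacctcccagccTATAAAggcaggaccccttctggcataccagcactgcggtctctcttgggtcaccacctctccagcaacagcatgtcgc
Krt5: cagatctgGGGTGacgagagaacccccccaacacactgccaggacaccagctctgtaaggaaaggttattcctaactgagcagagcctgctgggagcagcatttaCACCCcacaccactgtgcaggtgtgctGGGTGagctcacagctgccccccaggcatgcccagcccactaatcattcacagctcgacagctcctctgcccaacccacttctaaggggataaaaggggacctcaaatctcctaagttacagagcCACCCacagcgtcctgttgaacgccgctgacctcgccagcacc
Krt13: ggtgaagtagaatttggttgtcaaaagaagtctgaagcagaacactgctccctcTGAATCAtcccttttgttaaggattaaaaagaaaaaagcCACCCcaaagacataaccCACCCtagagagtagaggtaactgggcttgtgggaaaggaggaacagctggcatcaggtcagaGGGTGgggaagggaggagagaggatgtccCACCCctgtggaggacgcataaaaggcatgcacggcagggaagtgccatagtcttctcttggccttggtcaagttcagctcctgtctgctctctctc
Krt18: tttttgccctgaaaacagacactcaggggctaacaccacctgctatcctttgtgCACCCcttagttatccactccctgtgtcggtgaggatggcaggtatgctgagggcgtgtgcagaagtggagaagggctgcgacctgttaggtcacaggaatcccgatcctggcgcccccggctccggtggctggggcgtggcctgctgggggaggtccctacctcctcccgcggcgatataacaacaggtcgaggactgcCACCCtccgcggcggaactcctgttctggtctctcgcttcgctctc

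The Krt12 promoter held 1 TATAAA, beginning 29 bases before the annotated start, and 4 CACCC cores. Krt5 and Krt13 also held 4 CACCC cores each, Krt18 held 2, and none of these 3 windows had the letters TATAAA, which says only that those letters are not in them. Of the 51 members 35 had a promoter in the table, 36 promoters in all. In these TATAAA was present in 18 of 36, against 13.6% of all 32851 promoters of the same length. CACCC was present in 83.3% of keratin promoters against 57.5% of all, and the GC box core GGGCGG in 5.56% against 35.7%. TGANTCA stood in 5.56% against 7.81% and the ETS core CCGGAA in 2.78% against 14.9%. The keratin promoters with TGANTCA were both of Krt13, whose other annotated promoter, not shown, held 1 CACCC core. None of these 5 motifs holds another, and the matches are descriptions of letters and not of binding. Promoters of neighbouring keratins share ancestry, so the members are not independent in this respect.

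Levels are given in CPM, the estimated counts of a gene scaled to 1 common library total after TMM normalisation, and are not divided by transcript length. An order between genes is therefore an order of reads. Values are listed with control A before B, and blue A before B and C. In an eyeball sample, fewer cells of a type and less RNA per cell cannot be told apart. Library totals ran from 87071487 to 107660103 estimated counts, and the markers of an eyeball were present, with 14 summed lens genes at 46247 to 49459 CPM and 15 summed rod genes at 25122 and 26559 CPM in the controls and 4926 to 8956 CPM in the blue libraries. Blue A stood apart from the other libraries in many keratins, so fold changes that rest on it are also given without it. Of the 51 keratins, 29 passed the low-count filter and were tested, 10 had some counts but never more than 0.228 CPM, and 12 were at 0 in every library. A count of 0 allows up to 3 counts, or 0.0345 CPM in the smallest library, for counting error only.

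Corneal and basal keratins made up most keratin reads, and no difference between the groups passed the test. Krt12, the corneal chain (chr11:99415664-99422593), stood at 1871 and 2093 CPM under natural light and at 1878, 2301 and 2032 CPM under blue light. The groups overlapped, and the highest library was 1.23 times the lowest. The mean was 1982 ± 157 CPM in controls (SD, n = 2) and 2070 ± 214 CPM in blue libraries (SD, n = 3), a log2 fold change, blue minus control, of 0.06 (95% interval -0.22 to 0.34, adjusted p = 0.844). Its interval was the narrowest of the 29, and it excludes a change of 2-fold in either direction.

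Krt5 (chr15:101707069-101712905), the type II chain of basal cells, taken as a partner of Krt12 in mouse cornea, was read nearly as often as Krt12. It stood at 1552 and 2141 CPM under natural light and at 2371, 1889 and 1715 CPM under blue light. Blue A was the highest library and control A the lowest, so the groups overlapped here too (log2 fold change 0.11, 95% interval -0.36 to 0.58, adjusted p = 0.841). Over all genes in the table Krt12 ranked 20 and Krt5 ranked 23 by mean CPM. Together they held 77.3% to 90.4% of the CPM summed over the member keratins, with the lowest share in blue A. Keratins with a letter after the digits are not in this sum, so the share of all keratin CPM was lower.

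Krt14, the usual type I partner of Krt5 in basal cells, was read far less, at 1.94% to 5.90% of Krt5 in the 5 libraries. Its CPM was 38.8 and 50.3 under natural light and 140, 52.1 and 33.3 under blue light. Krt15 stood at 128 and 219 CPM under natural light and at 394, 90.1 and 91.3 CPM under blue light. In both genes blue A was far above every other library, while blue B and C lay close to the controls (Krt14) or below them (Krt15). The log2 fold changes of 0.75 for Krt14 (SE 0.60, adjusted p = 0.608) and 0.14 for Krt15 (SE 0.71, adjusted p = 0.952) did not pass. Without blue A they were -0.04 and -0.92.

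**Figure D1:**
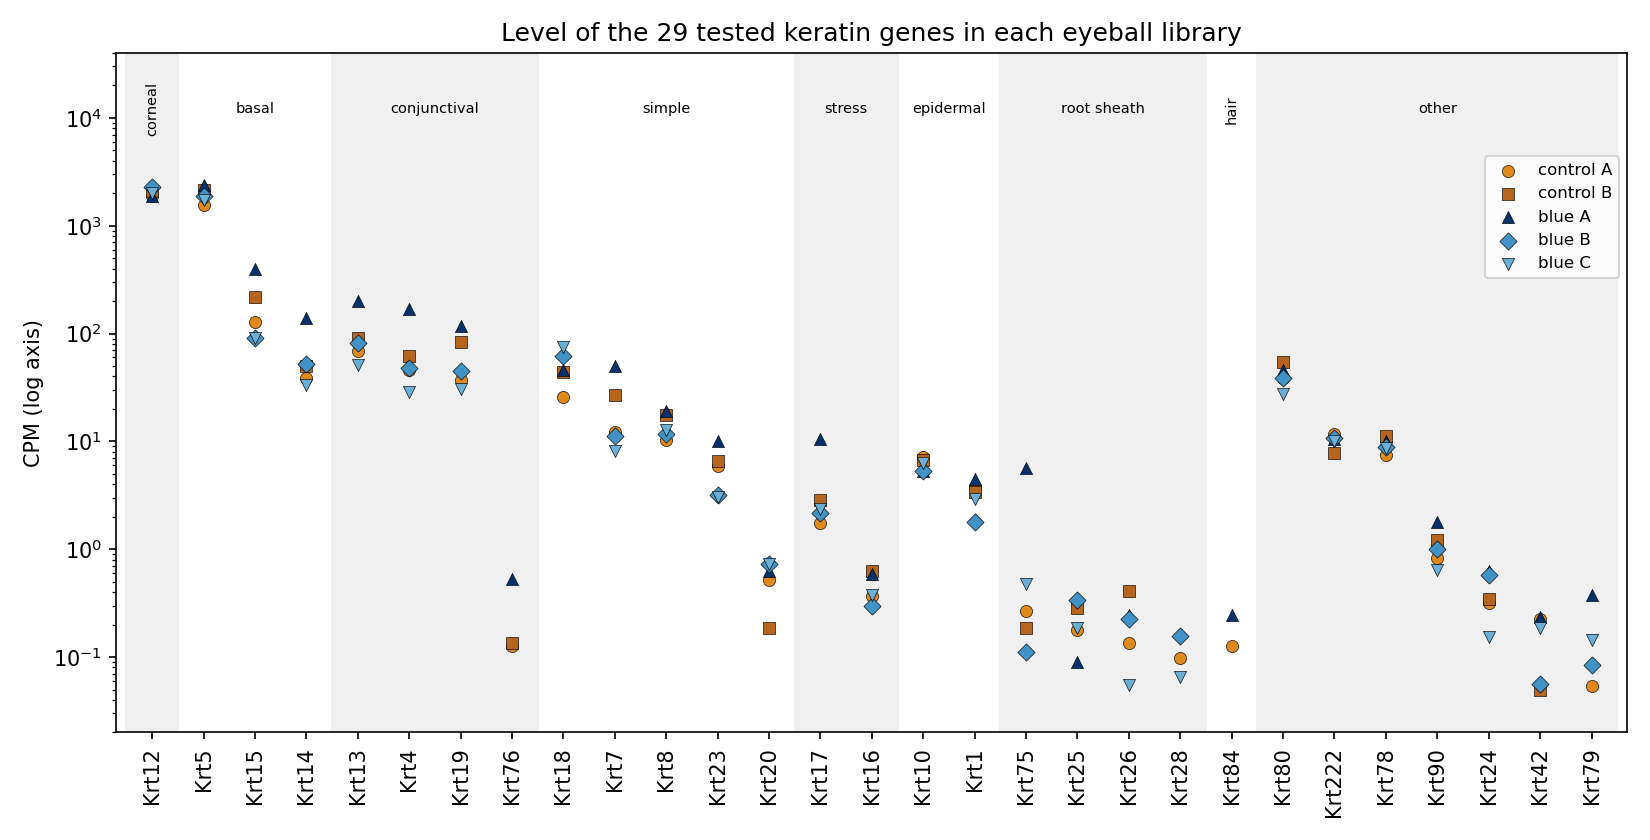
CPM on a log axis for the 29 tested keratins, grouped by class, with 1 point per library (orange for natural light, blue for blue light, values of 0 not drawn). Krt12 and Krt5 sit between 1552 and 2371 CPM with libraries close together, whereas blue A (dark triangles) stands highest for Krt15, Krt14, Krt13, Krt4, Krt19, Krt7 and Krt17.

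Each conjunctival keratin was read far less than Krt12, and in each the highest library was blue A. Krt13, a type I chain of moist stratified linings, was at 68.7 and 91.0 CPM under natural light and at 200.04, 82.3 and 50.9 CPM under blue light. Its type II partner Krt4 was at 45.9 and 61.7 CPM under natural light and at 168, 47.6 and 28.7 CPM under blue light. The pair kept close company, with Krt4 at 0.564 to 0.839 of Krt13 in every library. Krt19, a small type I chain of conjunctiva and other epithelia, was at 37.5 and 84.0 CPM under natural light and at 119, 45.2 and 30.8 CPM under blue light. In all 3 genes blue A was highest, control B second and blue C lowest, so that blue libraries held both ends of the range.

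The log2 fold changes were 0.48 for Krt13 (95% interval -0.91 to 1.86), 0.60 for Krt4 (-1.21 to 2.41) and 0.09 for Krt19 (-1.46 to 1.65), with adjusted p of 0.744, 0.756 and 0.964. The intervals of Krt4 and Krt19 hold changes of 2-fold either way and that of Krt13 holds a 2-fold increase, so no difference was detectable in these libraries. Without blue A the values were -0.24, -0.48 and -0.66, each of opposite sign. Krt76, a keratin of oral lining, was at 0.126 and 0.136 CPM in the controls, 0.534 CPM in blue A and 0 in blue B and C.

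Ratios within a library do not depend on scaling. The summed conjunctival class came to 8.13% and 11.3% of Krt12 under natural light and to 25.9%, 7.61% and 5.43% under blue light. Krt13 alone was 3.67% and 4.35% of Krt12 in the controls, and 10.7%, 3.58% and 2.51% under blue light. Blue A was thus 2.45 times the next library in this ratio, while the other 2 blue libraries were at or below both controls.

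**Figure D2:**
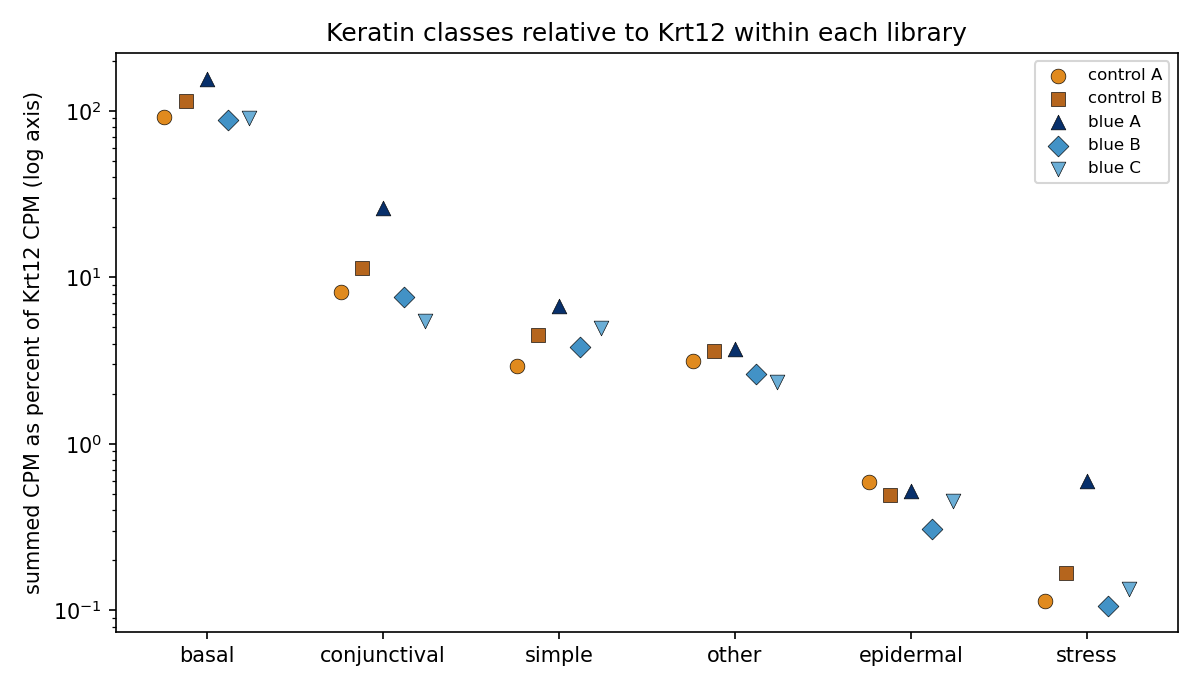
Summed CPM of 6 keratin classes as a percent of Krt12 CPM in the same library, on a log axis, with 1 point per library. The conjunctival class reaches 25.9% in blue A against 5.43% to 11.3% in the other 4 libraries, and the epidermal class does not exceed 0.591% in any.

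Among keratins of simple epithelia, Krt18 alone separated the groups at a level above 1 CPM. Krt18 was at 25.6 and 43.8 CPM under natural light and at 45.6, 61.6 and 75.8 CPM under blue light. All blue libraries were above both controls, although blue A exceeded control B by little. The log2 fold change of Krt18 (chr15:102028216-102032026) was 0.81 (SE 0.30, 95% interval 0.08 to 1.55, unadjusted), with an unadjusted p of 0.0346 and an adjusted p of 0.258 in edgeR. DESeq2's Wald test called it (log2 fold change 0.84, adjusted p = 0.0435), and limma-voom did not (adjusted p = 0.223). The value was 0.50 without control A and 1.25 without control B, and 1.01 without blue A, with none of these called in edgeR.

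Its type II partner Krt8 had another order of libraries. It was at 10.2 and 17.6 CPM under natural light and at 19.1, 11.6 and 12.8 CPM under blue light (log2 fold change 0.06, 95% interval -0.69 to 0.82, adjusted p = 0.953). The ratio of Krt18 to Krt8 counts was 2.50 and 2.49 under natural light and 2.39, 5.32 and 5.90 under blue light. In this ratio blue A sided with the controls. Pigment epithelium of the retina also makes Krt8 and Krt18. A list of 9 genes of melanocytes and pigment epithelium was also summed (Rpe65, Best1, Rlbp1, Lrat, Ttr, Tyr, Dct, Pmel and Mlana). Its level was 1723 and 2078 CPM in the controls and 1917, 2217 and 2212 CPM under blue light. The part of these cells in the Krt18 result was not tested.

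Krt7, a type II chain of simple and glandular epithelia, had its highest and lowest values in the same libraries as the conjunctival keratins. It was at 12.3 and 26.7 CPM under natural light and at 50.4, 11.2 and 8.16 CPM under blue light, and the highest library was 6.18 times the lowest. The log2 fold change of 0.26 (SE 0.83, adjusted p = 0.924) became -0.99 without blue A. Krt23 ran from 3.03 CPM in blue C to 10.2 CPM in blue A, and Krt20, a gut and bladder keratin, stayed under 0.74 CPM.

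Skin-type keratins were low. Krt10 and Krt1, the pair of upper epidermal layers, reached at most 7.22 and 4.48 CPM, and the summed epidermal class was 0.308% to 0.591% of Krt12. Krt10 was at 7.22 and 6.70 CPM under natural light and at 5.28, 5.27 and 6.28 CPM under blue light, with all blue libraries below both controls (log2 fold change -0.31, SE 0.15, adjusted p = 0.393). Krt2, which marks the uppermost living layers of skin, was at 0 in every library, and Krt77 and Krt9 were at or below 0.148 CPM. Of 14 hair and nail keratins 8 were at 0 in all 5 libraries, and the summed class ran from 0.0439 to 0.633 CPM.

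Some keratins of wounded epithelium and hair follicle stood out in blue A alone. Krt17, induced in stressed and regenerating epithelium, was at 1.76 and 2.88 CPM under natural light and at 10.6, 2.16 and 2.34 CPM under blue light. Krt75, of the companion layer around the hair, was at 0.269 and 0.185 CPM under natural light and at 5.69, 0.112 and 0.472 CPM under blue light, so that blue A was 25.0 times the median of the other 4 libraries. Krt16, often induced together with Krt17, did not share this, at 0.368 and 0.630 CPM in the controls and 0.584, 0.298 and 0.373 CPM in the blue libraries. The cornified envelope gene Sprr1a was likewise at 0.503 and 1.14 CPM under natural light and at 15.5, 0.596 and 0.802 CPM under blue light. None of these differences passed (adjusted p = 0.555 for Krt17, 0.422 for Krt75, 0.867 for Krt16 and 0.460 for Sprr1a). Without blue A the log2 fold change went from 1.12 to -0.02 for Krt17, from 3.18 to 0.36 for Krt75 and from 2.79 to -0.20 for Sprr1a.

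Krt80, a type II chain found in many epithelia, was at 38.6 and 54.4 CPM under natural light and at 46.0, 38.9 and 27.6 CPM under blue light (log2 fold change -0.31, SE 0.24, adjusted p = 0.604). Krt222, a keratin-like gene, was at 11.7 and 7.76 CPM under natural light and at 10.6, 10.7 and 10.1 CPM under blue light (log2 fold change 0.11, SE 0.19, adjusted p = 0.839). The groups overlapped in both. Of the other tested members, Krt78 reached at most 11.3 CPM. Krt90 ran from 0.637 CPM in blue C to 1.79 CPM in blue A, and Krt24, Krt42 and Krt79 stayed under 0.63 CPM. Krt25, Krt26 and Krt28 of the inner root sheath reached at most 0.335, 0.408 and 0.158 CPM, and the hair keratin Krt84 at most 0.247 CPM.

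Counted over the 29 tested keratins, 0 passed in edgeR at an adjusted p under 0.05, where 2.22% of all 18988 tested genes did. Limma-voom also called 0, against 2.41% of all genes. DESeq2 called Krt18 alone, 1 of 29, against 9.04% of the genes to which it gave an adjusted p. At an unadjusted p under 0.05 edgeR had the same 1 keratin, against 16.3% of all genes. The groups did not overlap for 4 tested keratins, with Krt18, Krt20 and Krt79 higher and Krt10 lower under blue light, against 35.6% of all tested genes. The median log2 fold change was 0.17 over the tested keratins, with 21 positive and 8 negative, and -0.01 over all tested genes. The keratin median turned to -0.20 without blue A, and was 0.0094 without control A and 0.44 without blue C.

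Precision differed between keratins and other genes. The median SE of the log2 fold change was 0.60 over the 29 keratins and 0.43 over the 12 with a mean of at least 10 CPM, against 0.16 over all tested genes. Of those 12 keratins 8 were highest in blue A, against 24.4% of all tested genes. With blue A left out, edgeR still called 0 of 27 tested keratins, against 311 of all 18765 tested genes. An unadjusted p under 0.05 was found for 5 of the 27 (Krt18, Krt7, Krt15, Krt23 and Krt76), against 2676 of the 18765 genes. In blue B and C, Krt18 lay above both controls and the other named keratins lay below both. Blue A was left out because its keratin values stood apart, so these p-values describe the remaining libraries and are not a separate test. At the same threshold edgeR had 1 of 28 keratins without blue B (Krt75) and 0 of 28 without blue C.

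**Figure D3:**
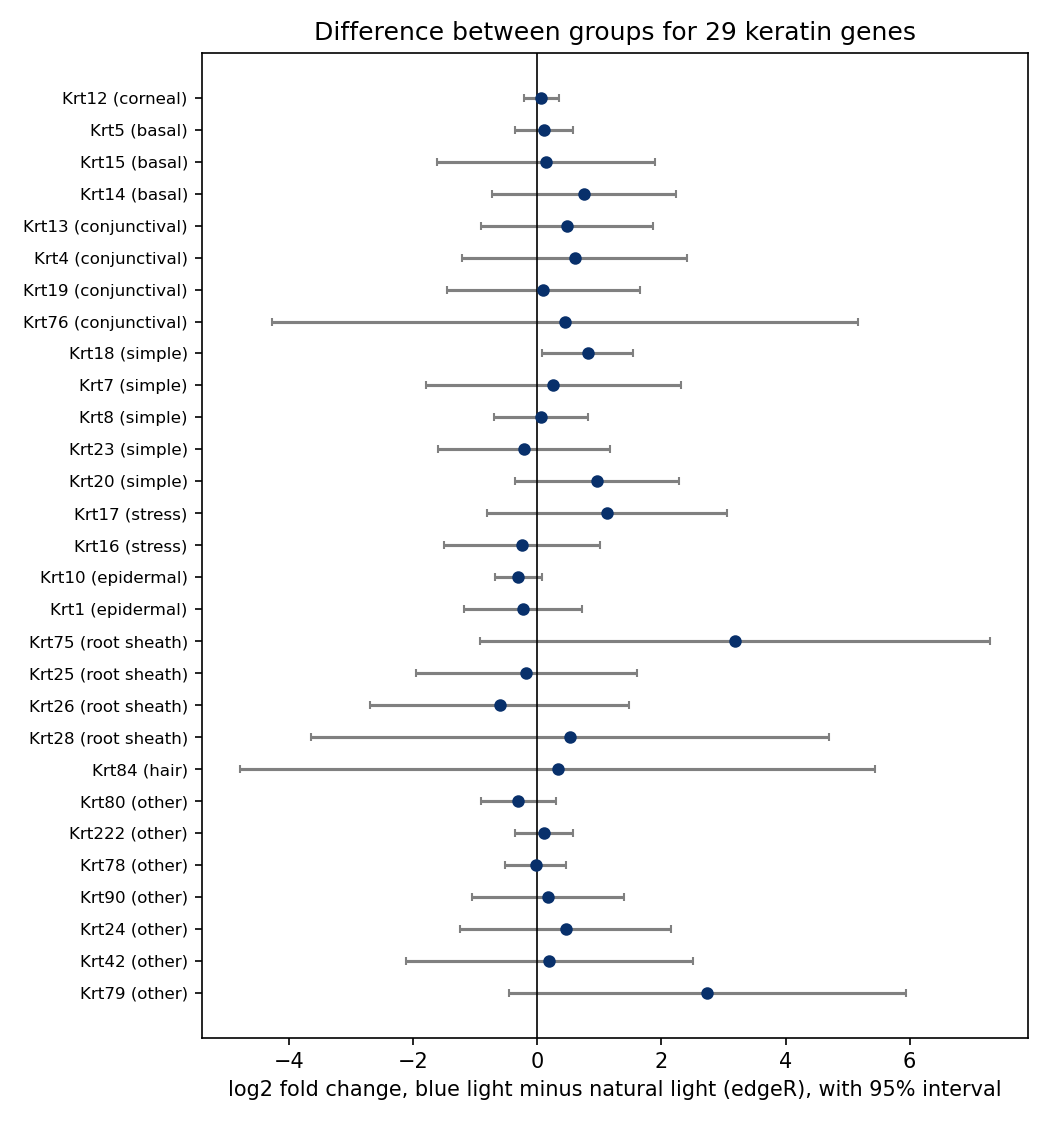
Log2 fold change of each tested keratin (blue light minus natural light, edgeR) with its unadjusted 95% interval, by class. Krt12 has the narrowest interval (-0.22 to 0.34), and only that of Krt18 (0.08 to 1.55) leaves out 0.

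Summed by class, none of 11 comparisons passed an exact permutation test over the 5 libraries, a 2-sided test that cannot give a p under 0.1 with 2 against 3. With TMM scaling the smallest p was 0.2, for the epidermal class (10.7 ± 0.566 CPM in controls, n = 2, against 8.71 ± 1.43 CPM in blue libraries, n = 3). The simple epithelial class had an exact permutation p of 0.3 with TMM scaling (log2 difference 0.53). With library totals as the only scaling it had 0.1, the lowest this test can give (log2 difference 0.57). The conjunctival class stood at 195 ± 59.9 CPM in controls (SD, n = 2) and 258 ± 201 CPM in blue libraries (SD, n = 3), with an exact permutation p of 0.9. The difference of mean log2 values, which weighs blue A less than the means in CPM do, was 0.15 and became -0.43 without blue A. After adjustment over the 11 comparisons with TMM scaling every p was 0.990 or above. The type I members summed to 1.31 and 1.12 times the type II members under natural light and to 1.05, 1.32 and 1.29 times under blue light. The type II sum (1672 to 2678 CPM) holds members only. It leaves out the type II genes Krt6a and Krt6b, so the ratio is not that of all keratins and shows no excess of type I. The means of this balance lay within the SD of either group (1.21 ± 0.132 in controls, 1.22 ± 0.148 in blue libraries, exact permutation p = 1).

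The rule leaves out keratins with a letter after the digits, of which Krt6a and Krt6b were among the most read. The class sums, the shares of keratin CPM and the type I to type II ratio above therefore do not include them. Krt6a stood at 240 and 274 CPM under natural light and at 410, 337 and 248 CPM under blue light (adjusted p = 0.460). Krt6b stood at 256 and 364 CPM under natural light and at 351, 313 and 260 CPM in the blue libraries (adjusted p = 0.991). These genes, like Krt14, Krt16 and Krt17, resemble their neighbours in sequence, and no source states how reads matching several genes were counted, so the split between such genes is uncertain. Of the 51 members 6 overlap another annotated gene, Krt12 among them.

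Desmosomes and hemidesmosomes anchor keratin filaments at the cell membrane. Of their 23 listed genes edgeR called 0, where it called 2.22% of all tested genes, and 2 had an unadjusted p below 0.05, where 16.3% of all genes did. Their median log2 fold change was 0.13. The same shares over all genes stand beside the counts of the other lists. Those 2 were the laminin chain Lama3 (-0.32, adjusted p = 0.238) and the integrin chain Itga6 (0.36, adjusted p = 0.281). Among 14 corneal epithelium genes 0 passed and 1 had an unadjusted p under 0.05, Pax6, the eye master regulator that retina and lens also express (0.30, adjusted p = 0.107, and 0.00017 in DESeq2). Of 12 tested goblet and mucin genes 0 passed and 0 had an unadjusted p under 0.05. Their summed level, 1246 and 1576 CPM under natural light and 1776, 928 and 912 CPM under blue light, had its highest value in the same library as the conjunctival keratins. From control A and B to blue A, B and C, the 14 corneal epithelium genes summed to 2861, 3500, 4184, 2948 and 2598 CPM. In that order the 23 desmosome and hemidesmosome genes summed to 3813, 4326, 5160, 4212 and 4047 CPM. Both sums were also highest in blue A with control B second, so this peak was not limited to conjunctival genes. Krt12 did not share it, being highest in blue B.

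Of 8 tested genes of the cornified envelope of skin 1 fell, the transglutaminase Tgm3, which crosslinks envelope proteins. It was at 12.5 and 8.73 CPM under natural light and at 2.98, 3.71 and 2.97 CPM under blue light (log2 fold change -1.72, SE 0.21, adjusted p = 0.0245). The median over the 8 was 0.17, and Sprr1a had the opposite sign (2.79). Against the same 2.22% of all tested genes called in either direction, 2 of 16 other intermediate filament genes rose: Gfap of glia by 3.17 and the neuronal filament Prph by 3.92 on the log2 scale (adjusted p = 0.0118 and 0.0217). The log2 fold changes of Tgm3, Gfap and Prph were -1.41, 2.96 and 3.43 without control A. They were -1.95, 3.43 and 4.70 without control B. Such fits leave 1 control, whose spread cannot be measured, so only these sizes are given. In the edgeR fit with a replicate block their adjusted p was 0.328, 0.153 and 0.153. That fit called 0 genes in the whole table, so the loss of these calls was not particular to the 3 genes. The log2 fold changes with the block were -1.65, 3.25 and 3.90, close to those without it. The Tgm3 call in edgeR was also lost without blue A (adjusted p = 0.0529) and without blue C (0.112), and that of Prph without blue C (0.0886). Over the whole table edgeR called 311 genes without blue A and 11 without blue C, against 421 with every library. Whether the keratins and these filaments differ in response was not tested.

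Markers of tissues that can stay attached to an eyeball also differed between libraries. The summed level of 14 skeletal muscle genes was 771 and 1680 CPM under natural light and 1639, 826 and 858 CPM under blue light, highest in the 2 libraries where Krt15, Krt13, Krt4, Krt19 and Krt7 were highest. The summed level of 11 adipocyte genes was 69.1 and 83.3 CPM in the controls and 110, 92.5 and 98.6 CPM under blue light. The summed lens level stayed within 46247 to 49459 CPM. The part of attached tissue in the keratin values was not tested.

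A second readout came from the miRNA libraries, which were counted separately and carry the same title stems. miR-205, miR-203 and the miR-200 family are miRNAs of epithelial cells, and miR-184 is abundant in corneal epithelium and lens. The mature sequences are shown because the miR-200 family splits by its seed, bases 2 to 8, given here in capitals (RefSeq, GRCm38.p6).
mmu-miR-200b-3p: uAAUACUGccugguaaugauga
mmu-miR-200c-3p: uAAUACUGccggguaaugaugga
mmu-miR-429-3p: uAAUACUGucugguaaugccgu
mmu-miR-200a-3p: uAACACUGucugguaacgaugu
mmu-miR-141-3p: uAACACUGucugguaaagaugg
mmu-miR-205-5p: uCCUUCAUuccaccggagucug

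The first 3 share the seed AAUACUG and the next 2 the seed AACACUG, while miR-205 has its own. Both seed groups had the order seen for the conjunctival keratins at its top, with blue A first and control B second. miR-141-3p was at 44.0 and 75.9 CPM under natural light and at 119, 46.8 and 36.5 CPM under blue light. miR-429-3p was at 169 and 362 CPM under natural light and at 435, 155 and 152 CPM in the blue libraries, and miR-200b-3p at 1469 and 2551 CPM against 2946, 1808 and 1843 CPM. Of the 8 miRNAs listed 7 had blue A first and control B second, as did 7 of the 12 keratins with a mean of at least 10 CPM (Krt5, Krt15, Krt13, Krt4, Krt19, Krt7 and Krt8). The highest of the 8, miR-184-3p, was at 95733 and 97188 CPM under natural light and at 101347, 80866 and 71294 CPM under blue light. miR-203-3p ran from 754 to 1530 CPM, miR-200a-3p from 1007 to 2463 CPM and miR-200c-3p from 297 to 609 CPM, each lowest in control A. The labels do not say whether the mRNA and miRNA libraries of a title share RNA. The order held for 5.93% of all 641 tested miRNAs and 7.87% of all tested mRNAs. It was taken from the keratins of these same data, so the counts describe it and do not test it. miR-200a, miR-200b and miR-429 lie close together on chromosome 4, and miR-200c and miR-141 on chromosome 6. These miRNAs are therefore not independent cases.

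miR-205-5p departed from it, at 2273 and 3384 CPM under natural light and at 3697, 3425 and 3997 CPM under blue light. The blue libraries were all above both controls, but the difference did not pass (log2 fold change 0.39, SE 0.19, adjusted p = 0.471). None of the 8 was called in edgeR, where 0 had an unadjusted p under 0.05, or in DESeq2. Over all tested miRNAs 0.624% were called in edgeR, 11.9% had an unadjusted p under 0.05, and DESeq2 called 1.72%. With 5 libraries no correlation between the assays was computed.

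**Figure D4:**
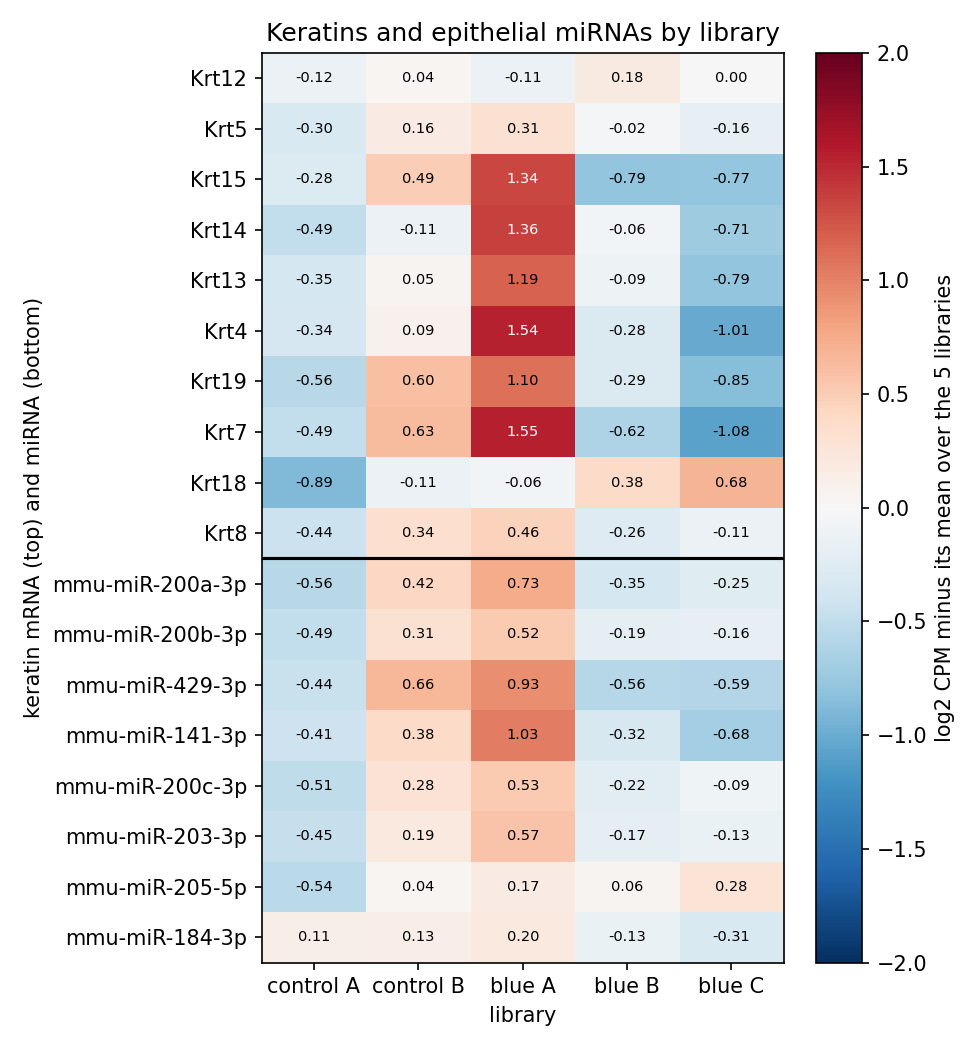
Log2 CPM of 10 keratins (top) and 8 miRNAs (bottom) minus each feature's mean over the 5 libraries, with libraries in columns and red for above the mean. Blue A is the highest column for Krt15, Krt14, Krt13, Krt4, Krt19 and Krt7 and for the miR-200 family, Krt12 stays within -0.12 to 0.18, and Krt18 is highest in blue C.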

How the data were processed

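Total RNA of eyeballs, freed of ribosomal RNA with probes, was sequenced per the labels' protocols. HISAT2, StringTie, bcl2fastq 2.0, limma, DESeq2 and the build mm10 appear, with no role given, per the submitters' processing notes. The deposited mRNA values were taken as estimated counts per symbol, since they are whole numbers whose totals differ between libraries, and rounding changed none. The deposited miRNA values are counts per mature miRNA, from 8355432 to 10875487 a library. Strand use in counting is not stated. Which steps apply to miRNA is not given. Each column was tied to its sample by the title.

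Each table was fitted whole with edgeR 4.0.16 in R 4.3.3 (TMM, filterByExpr by group, quasi-likelihood F-test, Benjamini-Hochberg adjustment over all tested genes, threshold 0.05), with no block, and only keratins and listed genes are printed. SE is the absolute log2 fold change divided by the square root of F, and intervals use that test's degrees of freedom. Class sums were compared by exact permutation. Alternatives were DESeq2 1.42.0, limma-voom (limma 3.58.1), other scalings and filters, values divided by 4, fits without each library in turn and a replicate block. The script was tested on simulated data. Keratin lengths were not used here, so the planned type I to type II ratio per length is given in CPM.

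Members, classes and lists were chosen with earlier results of these data known. The naming rule covered every tested keratin, with values per library for those of at least 10 CPM on average, and up to 4 members of smallest p per other list. Library values of Krt10, Krt16, Krt17, Krt75 and Krt76 and of Krt6a and Krt6b were added after they were seen. Of the lists fixed for other tissues, corneal stroma had 1 gene higher of 11 tested, rods had 13 lower of 15 and adipocytes had 1 higher of 11. Skeletal muscle (14 tested), lens (14), melanocytes and pigment epithelium (9), hair shaft (8) and lacrimal gland (3) had 0 called in edgeR. At an unadjusted p under 0.05 they had 0, 0, 2, 1 and 0, in that order. At that threshold corneal stroma had 6 of 11, rods 15 of 15, adipocytes 4 of 11 and other intermediate filaments 5 of 16, where 16.3% of all tested genes passed.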

Additional observations from a re-analysis of the deposited data

How the results depend on the processing

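The count of called keratins was 0 in edgeR with each scaling, filter or division tried and without any single library, and 1 in DESeq2 (Krt18). With a replicate block it was 0 of 29, and 0 genes were called in the whole table (1455 had an unadjusted p under 0.05). The labels do not say whether the letters pair libraries. Deviations of same-lettered libraries correlated at -0.30 (A) and -0.25 (B). With 2 controls, whose deviations mirror each other, these values cannot settle whether the letters mark a pairing. With 0 genes called in the whole table, the block could not show whether it alters keratin calls. The log2 fold change of Krt12 stayed between 0.00 and 0.15 in every fit. That of Krt18 stayed positive, from 0.50 without control A to 1.25 without control B. In limma-voom Krt15 was at -0.17 and Krt7 at -0.045, and with the replicate block miR-429-3p was at 0.071. Krt6b, at -0.01 in edgeR, was at 0.011 with DESeq2 size factors and in DESeq2, 0.055 with library totals, 0.0023 in limma-voom and 0.12 with the replicate block. Leaving out 1 library moved Krt5 between -0.079 and 0.36, Krt15 between -0.92 and 0.58, Krt13 between -0.24 and 0.82, Krt4 between -0.48 and 1.003, Krt19 between -0.66 and 0.79, Krt14 between -0.043 and 1.11, Krt7 between -0.99 and 0.92, Krt8 between -0.25 and 0.50, Krt222 between -0.15 and 0.46, Krt17 between -0.023 and 1.51, Krt16 between -0.56 and 0.18, Krt6b between -0.21 and 0.27 and Sprr1a between -0.20 and 3.48. The class differences moved between -0.097 and 0.36 (basal), -0.43 and 0.62 (conjunctival) and -0.064 and 1.03 (stress), and the type I to type II ratio between -0.11 and 0.11 on the log2 scale. Of the miRNAs, miR-203-3p moved between -0.056 and 0.60, miR-200a-3p between -0.31 and 0.70, miR-200b-3p between -0.21 and 0.59, miR-200c-3p between -0.17 and 0.63, miR-141-3p between -0.53 and 0.63 and miR-429-3p between -0.79 and 0.56. None of these passed in any fit, and where a sign changed the cause was not tested. Over the whole table edgeR called 421 genes (126 higher, 295 lower), 275 with library totals (125 higher, 150 lower), 8 without control A, 0 without control B (2872 with an unadjusted p under 0.05), 277 without blue B and 11 without blue C, and DESeq2 called 1715. With 1 control left, its spread was taken to equal that of the blue libraries. With 2 against 3 libraries a 2-fold increase lies inside the intervals of Krt13, Krt4 and Krt19, and a 2-fold decrease inside those of Krt4 and Krt19.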
